A study of Vitis vinifera with 36 samples.

Results

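The change in gene expression from pre-bloom (S1) to post-bloom (S2) was measured in ovules of the seedless grape variety Thompson Seedless (TS). The comparison set the 3 arrays labelled TS S2 against the 3 arrays labelled TS S1, that is 6 of the 36 arrays of the series, over the non-control probes that the authors kept in their deposited matrix. Of 22683 such probes, 22582 had a usable spot on every array, and 22203 of these were tested because at least 1 variety and stage had all 3 of its arrays well above background for them. The other 379 were not tested. Pre-bloom is stage 17 of the Eichhorn-Lorenz (E-L) scale, BBCH 57 to 60, and post-bloom is E-L 19 to 25, BBCH 65 to 68. The vines were Vitis vinifera grown in 1 experimental field in southern Italy under conventional management, and neither stage received a hormone treatment. Ovules were dissected from flowers and pooled before RNA extraction, and the labels name the tissue seeds. The study describes the replicates as biological, while neither it nor the labels say whether they came from separate vines. The p-values given for genes rest on the spread between samples within all 12 groups of the series, pooled. They do not measure the spread of the 6 arrays alone. Red Globe (RG) and Italia (IT), both seeded and sampled at the same stages with 3 arrays each, served to test whether the step differed. Autumn Royal was not analysed here.

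In the course of bloom the grape flower opens and pollen is shed, and the ovules are then fertilized. After fertilization the integuments around the embryo sac begin to grow into the seed coat, and the ovary wall begins to grow into the berry. The stated stages do not tell whether the S2 ovules were already fertilized. Thompson Seedless is a stenospermocarpic variety, in which fertilization takes place but the seed later aborts and remains as a soft rudiment. It carries a mutated allele of VviAGL11, the grapevine homolog of the Arabidopsis MADS-box gene SEEDSTICK, which acts in ovule identity and seed coat differentiation.

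Expression is given as a log2 level, which is the log2 signal of a probe minus the 75th percentile of its array, so that 0 marks a fairly bright probe. Such levels compare samples and not genes, because probes differ in brightness. The differences are S2 minus S1 and were tested with limma over all 36 arrays, with Benjamini-Hochberg adjustment over the 22203 probes. A probe was called when its adjusted p was under 0.05 and its log2 difference was at least 1 in either direction. On the 6 arrays 85.0 to 97.3% of the probes of the matrix were well above background. Replicates 1 and 2 of TS S2 were nearly the same measurement (Pearson's r = 0.9923 across 9192 probes, which are not independent replicates), whereas the other 5 pairs within these groups had r between 0.7484 and 0.888. For probes spotted more than once, the same spot differed between these arrays with an SD of 0.267, less than the SDs of 0.346 and 0.289 between 2 spots of a probe on each array. No other of the 36 pairs of arrays within a group of the series did so. The labels give the arrays as separate replicates, but they differed by less than the spot noise, so the main counts are also given with them averaged and counted as 1 sample. On TS S1 replicate 2 the 2 spots of a probe differed with an SD of 1.17, against 0.095 to 0.446 on the other 5 arrays. Pairs across the stages had r between 0.7363 and 0.9308, so some arrays were more alike across stages than within them. The highest value was that of TS S1 replicate 3 with TS S2 replicate 3, which lay on the same slide. TS S1 replicate 1 had r = 0.8855 and 0.8831 with TS S2 replicates 1 and 2, against 0.7484 and 0.7864 with the other S1 arrays.

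More of the called probes rose than fell between the stages, except in a fit with array weights, in which 1767 probes were called higher and 3631 lower. That fit gave weights of 4.6 and 3.5 to the near-identical TS S2 replicates 1 and 2, and 0.18 to replicate 3. In the main fit 776 of 22203 probes were called (3.5%), 622 of them higher (2.8%) and 154 lower (0.694%) at post-bloom. Of these calls 80.2% were higher, against 94.7% of 300 calls without scaling of the arrays. With TS S2 replicates 1 and 2 counted as 1 sample, 442 probes were called, 382 higher and 60 lower, and these included 380 of the 622 and 60 of the 154. The rises were also larger: 263 called probes rose by at least 3 on the log2 scale and 26 fell by at least 3. In 758 of the called probes the levels of the 3 arrays of S1 and the 3 of S2 did not overlap, which was so for 15.4% of all probes tested. No S1 array was above background for 59 of the probes called higher, and no S2 array for 9 of those called lower. The median log2 difference over all probes tested was -0.10, and 0.16 without scaling of the arrays. Levels in whole ovules cannot tell fewer cells of a type apart from less RNA per cell.

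**Figure D1:**
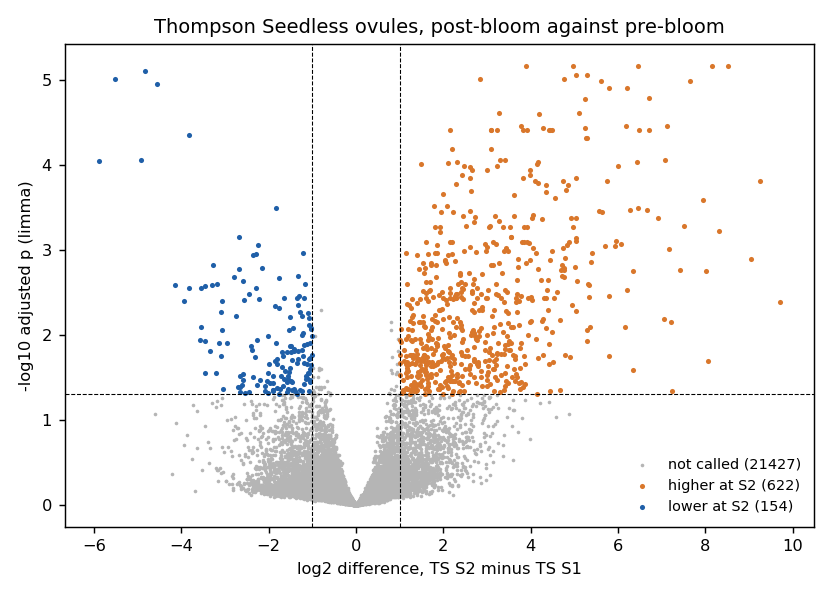
Each point is 1 of the 22203 probes tested, with the log2 difference of TS S2 minus TS S1 on the x axis and the -log10 of limma's adjusted p on the y axis; dashed lines mark the thresholds. The 622 probes called higher (orange) reach further from 0 than the 154 called lower (blue).

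Functional annotation was available for a minority of the probes, mostly from the study's own lists of genes that differed between varieties or followed VviAGL11. Of 3730 annotated probes tested, 101 were called higher and 45 lower (3.91%), close to the share among all probes. The genes named below were taken from these by size and from gene lists. In the V1 identifiers the digits before the letter s give the chromosome, with zeros for sequence that is not placed.

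Among the annotated probes detected at both stages, the largest rise belonged to a chloroplast carbonic anhydrase (VIT_17s0000g08450), an enzyme that interconverts carbon dioxide and bicarbonate. Its log2 level was -6.64, -6.29 and -6.36 on S1 replicates 1 to 3 and -1.13, -0.80 and 2.10 on S2 replicates 1 to 3. The groups did not overlap, and only 1 of the 3 S1 arrays was above background. The difference was 6.48 ± 0.87 (SE, adjusted p = 3.82e-05), a fitted value whose size is uncertain because of the dim S1 arrays. It was 6.99 (adjusted p = 0.000157) with the 2 near-identical arrays counted as 1 sample. Of the other large rises, 3 were annotated as orcinol O-methyltransferases, enzymes that in rose petals make scent compounds by methylating orcinol. VIT_12s0028g02840 lay at -7.31, -8.25 and -6.32 at S1 and at -1.72, -1.53 and -2.92 at S2, a difference of 5.24 ± 0.65 (adjusted p = 1.67e-05). VIT_12s0028g02800 rose by 4.71 ± 0.90 (adjusted p = 0.00204) and VIT_12s0028g02740 by 4.27 ± 0.93 (adjusted p = 0.00648). All 3 were dim at pre-bloom, above background on 1 or 2 of the 3 S1 arrays, and near-identical copies in this cluster may share signal.

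An auxin-induced beta-glucosidase (VIT_07s0005g01300), of a class of enzymes that release glucose from conjugates, lay at -4.91, -5.83 and -5.74 at S1 and at -0.92, -1.14 and -1.36 at S2. The arrays of each stage stayed within 1 log2 unit of each other and the stages were far apart, with a difference of 4.36 ± 0.68 (adjusted p = 0.000207). The MYB factor MIXTA-like 2 (VIT_17s0000g06410), named for the snapdragon gene that shapes conical petal cells, rose from -6.40, -6.21 and -5.60 to -1.82, -1.69 and -2.36, by 4.11 ± 0.74 (adjusted p = 0.0011). BFN1 (VIT_00s0301g00100), a nuclease that in Arabidopsis is tied to senescence and programmed cell death, was above background on all S1 arrays. It rose from -1.36, -1.0 and -1.79 to 2.45, 2.31 and 2.94, by 3.95 ± 0.69 (adjusted p = 0.000819). A pair of probes annotated as 11-beta-hydroxysteroid dehydrogenase, a family that includes steroleosins of oil bodies, rose by similar amounts. The difference was 3.83 ± 0.57 for VIT_16s0039g01600 (adjusted p = 0.000143) and 3.70 ± 0.69 for VIT_01s0146g00070 (adjusted p = 0.0016).

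An aspartate-glutamate racemase (VIT_11s0016g04960) rose by 3.55 ± 0.61 (adjusted p = 0.000698), but its S1 levels were widely spread at -6.71, -8.69 and -4.64 and only 1 S1 array was above background. Its S2 levels were -2.98, -2.66 and -3.75. The putative transporter nodulin MtN21 (VIT_08s0040g00800) was the weakest of the 12 largest rises of this ranking in this respect. Its levels were -8.50, -3.73 and -4.65 at S1 and -0.93, -1.02 and -3.70 at S2, so that the lowest S2 array lay only just above the highest S1 array. The difference of 3.75 (adjusted p = 0.0142) was no longer called with the near-identical arrays as 1 sample (adjusted p = 0.101).

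**Figure D2:**
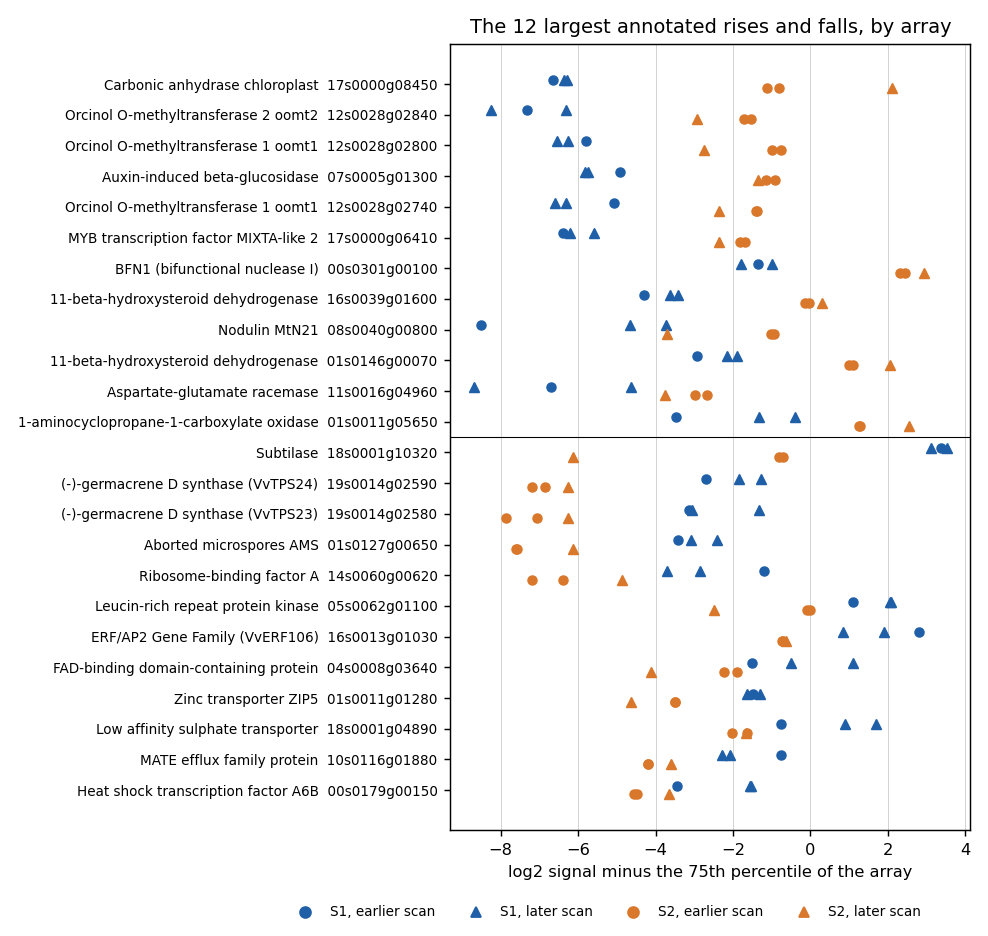
Log2 levels on each of the 6 arrays for the 12 annotated genes with the largest rise (top) and the 12 with the largest fall (bottom) among called probes detected at both stages and chosen to have no overlap between them; blue is S1, orange S2, circles are arrays of the earlier scans and triangles of the later scans. The gap between the stages is wide for BFN1 (S1 up to -1.0, S2 from 2.31) and narrow for nodulin MtN21 (S1 up to -3.73, S2 from -3.70).

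In the same ranking the largest fall was that of a subtilase (VIT_18s0001g10320), a serine protease. Its level was 3.37, 3.52 and 3.11 at S1, among the bright probes of the arrays, and -0.71, -0.82 and -6.13 at S2. All 3 S2 arrays were far below S1, but replicate 3 was much lower than the other two. The difference was -5.89 ± 0.84 (adjusted p = 8.86e-05), with -4.14 in the earlier and -9.45 in the later scans described below. A pair of neighbouring germacrene D synthases, which make a sesquiterpene of floral scent, fell together. VvTPS24 (VIT_19s0014g02590), whose annotation also names a selina-diene/intermedeol synthase, went from -2.69, -1.84 and -1.28 to -6.85, -7.20 and -6.25, by -4.83 ± 0.55 (adjusted p = 7.83e-06). VvTPS23 (VIT_19s0014g02580) went from -3.13, -3.06 and -1.32 to -7.07, -7.86 and -6.26, by -4.56 ± 0.55 (adjusted p = 1.1e-05). Both were above background on all S1 arrays and on 2 of the 3 S2 arrays, and they are close paralogs whose probes may share signal.

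AMS (VIT_01s0127g00650), the homolog of a bHLH factor that Arabidopsis needs in the tapetum for pollen development, lay at -3.41, -2.41 and -3.09 at S1. At S2 it lay at -7.57, -7.61 and -6.13 and was above background on 1 array only. The difference was -4.14 ± 0.82 (adjusted p = 0.00257). The zinc transporter ZIP5 (VIT_01s0011g01280) fell from -1.48, -1.30 and -1.65 to -3.51, -3.49 and -4.64 (difference -2.40 ± 0.57, adjusted p = 0.0135), and a MATE efflux protein (VIT_10s0116g01880) fell by 2.29 (adjusted p = 0.00113). A leucine-rich repeat kinase (VIT_05s0062g01100) fell by 2.61, by 1.14 in the earlier scans and by 4.56 in the later ones (adjusted p = 0.0388). Of the 12 largest falls of this ranking 5 were no longer called with the near-identical arrays as 1 sample, against 1 of the 12 largest rises. Of the 5, 1 was a probe annotated as both ribosome-binding factor A and glycoside hydrolase family 28 (VIT_14s0060g00620, difference -3.57, adjusted p = 0.0736 as 1 sample). The others were the ethylene response factor VvERF106 (-2.53, 0.15), a FAD-binding protein (-2.45, 0.0634), a low affinity sulphate transporter (-2.39, 0.0607) and the heat shock factor HSFA6B (-2.05, 0.156).

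Genes were also grouped by function into 20 lists from their annotation. The lists hold 825 distinct probes that were tested, of which 28 were called higher and 7 lower (4.24%), against 3.5% of all probes, and 20 remained called with the near-identical arrays as 1 sample. Because many annotations come from genes that the study chose on these arrays, the counts are not independent evidence of a direction. With annotations restricted to tables that were not chosen on S1 or S2 arrays, 18 of the 35 calls were left. Such tables hold 3054 of the 4354 annotated probes. The 18 are a count and not a share of the list members left, so they show no excess over all probes.

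Flavonoid and phenylpropanoid genes had the most calls, 9 of 79 higher and none lower (5 higher as 1 sample), with a median log2 difference of 0.40 over the list. Of the 9, 6 were the orcinol O-methyltransferases, which do not build the flavonoid skeleton. The others were a pair of 4-coumarate-CoA ligases, which activate phenolic acids for the pathway, and a probe annotated as 2'-hydroxy isoflavone/dihydroflavonol reductase. The ligase VIT_14s0171g00300 rose from -2.65, -1.81 and -2.45 to -0.40, -0.39 and -1.47 (difference 1.55, adjusted p = 0.017), and VIT_06s0061g00450 rose by 1.07 (adjusted p = 0.0475). The reductase VIT_15s0048g01010 went from -5.48, -4.41 and -3.45 to -2.79, -2.81 and -0.63, by 2.37 ± 0.52 (adjusted p = 0.00698). The remaining 70 members were not called, and the list ran from -2.78 to 5.80.

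Few probes were called in each list of hormone genes. In the ethylene list 3 of 40 probes were higher and 1 lower (2 and 0 as 1 sample), with a median of -0.07. The 3 were ACC oxidases, which catalyse the last step of ethylene synthesis. VIT_01s0011g05650 rose from -3.46, -1.33 and -0.39 to 1.25, 1.29 and 2.54, by 3.42 ± 0.61 (adjusted p = 0.000961). VIT_05s0049g00410 rose from -3.46, -4.10 and -3.80 to -1.99, -1.82 and -1.88, by 1.89 ± 0.38 (adjusted p = 0.00335). VIT_02s0012g00360 rose by 1.57 (adjusted p = 0.0179) and was not called as 1 sample (adjusted p = 0.065). The gibberellin list had 2 of 14 probes higher, also as 1 sample, although its median was -0.29. Gibberellin 20-oxidase 2 (VIT_03s0063g01340), which makes precursors of active gibberellins, had the smallest SE among the named genes, with levels of -2.93, -2.76 and -3.37 before and -1.61, -1.44 and -1.53 after bloom. It rose by 1.49 ± 0.22 (adjusted p = 9.63e-05). A GASA-like gene (VIT_18s0072g01110), of a family induced by gibberellin in Arabidopsis, rose from -4.82, -3.05 and -3.57 to -1.97, -1.94 and -1.23, by 2.10 ± 0.51 (adjusted p = 0.0154).

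Of 30 auxin probes 2 were higher, also as 1 sample, with a median of 0.06. Beside the beta-glucosidase above, a SAUR gene (VIT_08s0007g03120), of a family of small auxin-responsive proteins, rose from -4.75, -4.23 and -5.24 to -1.99, -2.06 and -2.06, by 2.70 ± 0.57 (adjusted p = 0.00426). Of 22 jasmonate probes 2 were higher (1 as 1 sample), with a median of 0.19 that was -0.11 in the earlier and 1.25 in the later scans. Both were 12-oxophytodienoate reductases 2, the enzyme class that reduces the cyclopentenone precursor of jasmonate. VIT_18s0122g01170 rose from -1.68, -2.22 and -2.96 to -0.16, -0.18 and 0.04, by 2.19 ± 0.31 (adjusted p = 6.53e-05). Its neighbour VIT_18s0122g01160 was not above background at pre-bloom and rose at least 5.36-fold (adjusted p = 0.03). This bound sets its S2 mean against the dimmest signal that was still well above background on each S1 array. None of 47 abscisic acid probes was called.

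Terpene synthases were the list with the lowest median, -1.38 over 21 probes, but only VvTPS23 and VvTPS24 were called, both lower and both also as 1 sample. In all, 2 of the 21 probes had a positive difference. The median was -1.36 in the earlier scans, -0.27 in the later scans and -0.47 with another background correction, so that its size rests on the processing and the array set. Defence proteins had the highest median, 0.60 over 20 probes, with 2 chitinases higher, also as 1 sample. Chitinases cleave chitin of fungal cell walls. VIT_16s0050g02230 rose from -6.83, -4.92 and -4.24 to -2.82, -2.76 and -2.35 (difference 2.69, adjusted p = 0.00886), and the acidic endochitinase CHIB1 (VIT_15s0046g01570) rose by 2.50 (adjusted p = 0.0253).

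Among 68 lipid, cutin and wax probes 3 were higher (1 as 1 sample), with a median of 0.00. The one called both ways was an acyl-CoA synthetase (GSVIVT01033214001), which activates fatty acids, with levels of -0.07, 0.30 and 0.54 at S1 and 1.98, 1.62 and 1.76 at S2 (difference 1.53 ± 0.31, adjusted p = 0.003). The other two were lipid transfer proteins. Cell wall genes had 2 of 59 probes lower, a polygalacturonase and a pectate lyase, both enzymes that degrade pectin, and none higher. The polygalacturonase JP630 (VIT_01s0127g00870) went from 0.55, 0.91 and -0.05 to -1.28, -1.82 and -1.53 (difference -2.01, adjusted p = 0.0278), and the pectate lyase (VIT_05s0049g01630) fell by 1.81 (adjusted p = 0.0423). As 1 sample neither was called (adjusted p = 0.0907 and 0.234). Of 56 heat shock and chaperone probes 1 was higher, the small heat shock protein ACD31 at 1.75, and 1 lower, HSFA6B, and neither was called as 1 sample. One of 6 aquaporin probes was lower, the water channel PIP1A (VIT_05s0029g00510) at 2.29, 1.84 and 2.34 before and 0.80, 0.77 and 1.06 after bloom (adjusted p = 0.0439, and 0.159 as 1 sample). Of 43 photosynthesis probes 1 was higher, PsbW of photosystem II (difference 1.33, adjusted p = 0.0396, and 0.162 as 1 sample).

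Regulatory genes gave few calls. Of 21 ovule, embryo and endosperm regulators 2 were higher, also as 1 sample, with a median of -0.09. UNE10 (VIT_17s0000g06930), a bHLH factor whose Arabidopsis mutant is known for unfertilized embryo sacs, rose from -5.92, -5.80 and -5.15 to -1.98, -2.07 and -2.56, by 3.42 ± 0.49 (adjusted p = 8.72e-05). The BEL1-like homeodomain gene BLH8 (VIT_06s0004g02580) rose from -5.74, -4.07 and -3.97 to -2.58, -2.88 and -3.15, by 1.72 ± 0.32 (adjusted p = 0.0015). Its difference was 3.01 in the earlier and 0.87 in the later scans. Of 51 MYB, NAC, WRKY and homeobox factors only MIXTA-like 2 was called. In limma at this threshold no probe was called among 83 of cell division, 30 of histones and chromatin, 104 of cytosolic ribosomal proteins, 23 of sugar and starch and 13 of MADS-box factors. The medians of these 5 lists lay between -0.15 and 0.19. Those of cell division and ribosomal proteins were negative in the earlier scans, and that of MADS-box factors in the later ones. Medians this close to 0, also in the lists above, changed sign with the scaling in several cases and are given without a direction.

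**Figure D3:**
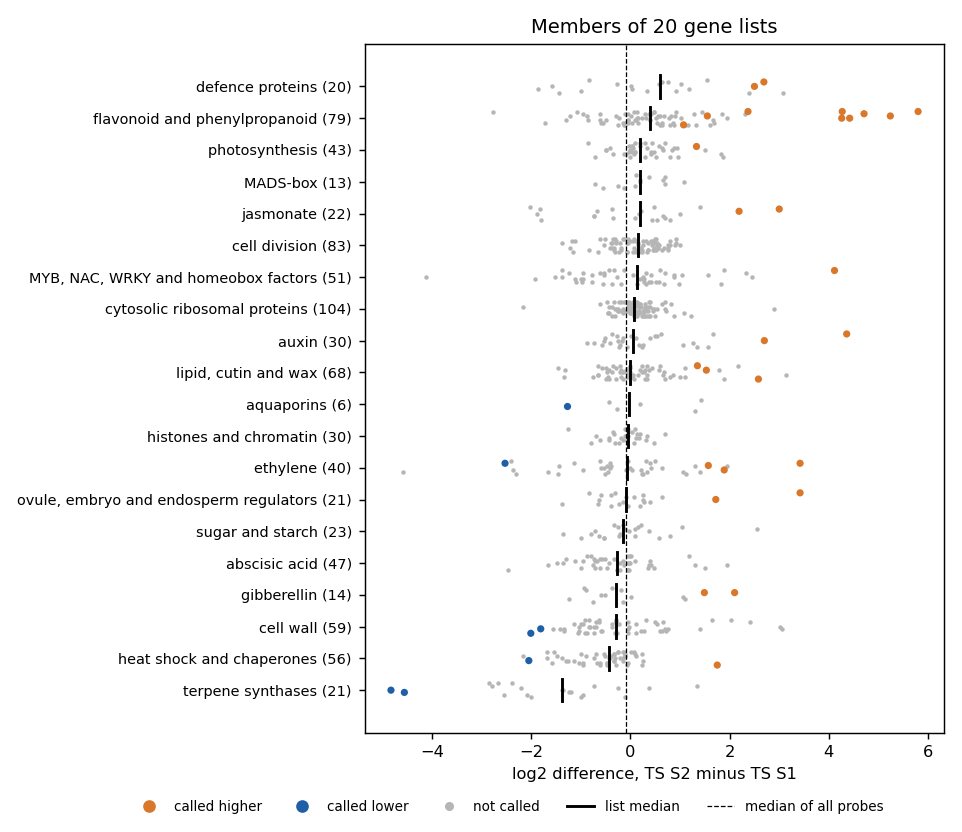
Log2 difference of TS S2 minus TS S1 for each tested member of 20 gene lists, ordered by the list median (black bar), with the number of members tested in brackets; the dashed line is the median of all probes. Medians run from -1.38 in terpene synthases to 0.60 in defence proteins, and called members (orange higher, blue lower) are few in every list.

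The marker genes were examined to check the tissue. VviAGL11 (VIT_18s0041g01880), an ovule marker, was well above background on all 6 arrays, at 3.78, 2.43 and 2.42 at S1 and 2.17, 2.40 and 2.40 at S2. Its difference was -0.56 ± 0.42 and was not called (adjusted p = 0.629), with -1.5 in the earlier and -0.02 in the later scans. The outer integument gene Inner no outer (VIT_01s0127g00330) was above background on all arrays, with a difference of 0.25 (adjusted p = 0.878). VviMADSD2a, in the same marker list but annotated as a MADS-box gene of type delta, was dim, with a difference of -0.26. It was above background on 5 of the 6 arrays and is not read as a sign of ovule tissue here. Listed markers of other floral tissues were also present at both stages and none of these was called. AMS, the homolog of a tapetum factor that was called lower above, was not in the marker lists. The petal and stamen genes VviAP3a and VviAP3b were above background on all arrays, with differences of 0.09 and 0.66, and the log2 of their summed scaled signal was 0.15 to 0.74 at S1 and -0.02 to 0.96 at S2. Of 5 pollen and anther probes, a pollen Ole e 1 protein (VIT_00s0357g00100) came closest to a call, at 5.65, 5.31 and 5.31 before and 4.26, 4.37 and 4.40 after bloom (difference -1.08 ± 0.33, adjusted p = 0.0687). The log2 of the summed signal of the 5 was 5.81 to 6.53 at S1 and 5.11 to 5.80 at S2, and the part of such tissue in the fall of AMS was not tested. Green tissue, read from the 43 photosynthesis probes, had a log2 summed signal of 6.17 to 6.86 at S1 and 6.41 to 6.57 at S2. Of the 10 probes in the marker lists of ovule, petal, stamen, pollen and anther, 9 were above background on all 6 arrays.

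The 3 genes studied as candidate targets of VviAGL11 were above background on all 6 arrays and were not called. The methyl jasmonate esterase VviMJE (VIT_00s0253g00080) lay at -2.27, 1.08 and 0.13 at S1 and at 1.03, 1.03 and -0.76 at S2 (difference 0.79 ± 0.68, adjusted p = 0.672). The stages overlapped, and the difference had opposite signs in the earlier (3.31) and later scans (-1.36). The indole-3-acetate beta-glucosyltransferase VviGT3 (VIT_03s0180g00320) had a difference of 0.25 ± 0.61 (adjusted p = 0.89), and the isoflavone reductase VviIFR (VIT_03s0038g04700) had one of -0.06 ± 0.36 (adjusted p = 0.959).

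The scanner output divides the arrays into earlier and later scans. TS S1 replicate 1 and TS S2 replicates 1 and 2 belong to the earlier scans, and TS S1 replicates 2 and 3 and TS S2 replicate 3 to the later ones, so that each set holds both stages and shares no array with the other. Within the earlier scans 2711 probes were called (12.2%), 1854 higher and 857 lower, and within the later scans 237 (1.07%), 189 higher and 48 lower. In the earlier scans S1 has a single array and in the later ones S2 has, and a single array was assumed to vary like the other groups. The S2 arrays of the earlier scans are the near-identical pair, here counted as 2 samples. That set may thus hold only 1 independent sample per stage, which limits the counts drawn from it. Of the probes called higher in the earlier scans 74.4% also had a positive difference in the later ones, and of those called lower 62.9% had a negative one, against 55.8% of all probes with the same sign in both. From the later to the earlier scans the shares were 93.7% and 75.0%. Called in both sets in the same direction were 139 probes higher and 16 lower. The signs of the probes called over the 6 arrays are not set against each other here, because in most of them the stages did not overlap and the sign within each set follows from that. With the scan period as a block, and the near-identical pair again as 2 samples, 1200 probes were called, 949 higher and 251 lower. They included 616 of the 622 and 147 of the 154.

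**Figure D4:**
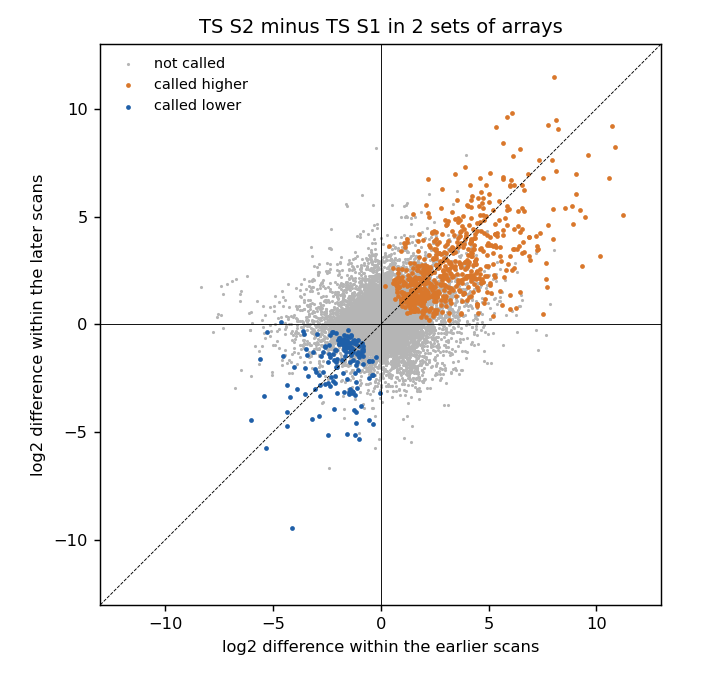
Log2 difference of TS S2 minus TS S1 within the earlier scans (x axis) against that within the later scans (y axis) for every probe tested; the dashed line marks equal differences. Orange and blue probes were called over the same 6 arrays, which places most of them in the upper right or lower left; over all probes 55.8% have the same sign in both sets.

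The step was set against the same step in the seeded varieties. In RG 187 probes were called (0.842%), 146 higher and 41 lower, and in IT 2033 (9.16%), 966 higher and 1067 lower. The probes called higher in TS had a median log2 difference of 2.66 in TS, 0.94 in RG and 1.85 in IT. Of these 622, 70 were called higher in RG and 357 in IT. The 154 called lower had medians of -1.77 in TS, -0.79 in RG and -0.99 in IT, and 20 and 58 were called lower in RG and IT. The medians in TS come from the arrays that chose the probes and are favoured by that choice. The falls of the germacrene D synthases were called in all 3 varieties. The difference of VvTPS24 was -4.91 (adjusted p = 1.73e-05) in RG and -2.40 (adjusted p = 0.00477) in IT, and the subtilase fell by 3.75 and 3.44. BFN1 rose by 4.08 ± 0.69 in IT (adjusted p = 0.000334), and its difference in RG was 0.50 ± 0.69 (adjusted p = 0.895). RG and IT were not tested against each other. In RG the replicates of S1 and S2 fell into the earlier and later scans as in TS, partly on the same slides. All IT arrays belong to the later scans. The part of this layout in the shared calls was not tested.

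The number of probes whose step differed between varieties depended on the fit. The step differed between TS and RG for 3 probes (0.0135%), all higher in TS, and between TS and IT for 2 (0.00901%), 1 in each direction, with none in both. The median SE of such a difference was 0.63, and 1129 and 2267 probes had an unadjusted p under 0.05. Against RG the annotated one was a bHLH factor (VIT_07s0191g00240), which rose in TS from -5.97, -6.73 and -5.91 to -2.99, -3.15 and -3.79, by 2.89 ± 0.55, and had a difference of -1.53 ± 0.55 in RG that was not called. Its mean level in RG was -3.01 at S1 and -4.54 at S2. Against IT the annotated one was the orcinol O-methyltransferase VIT_12s0028g02840, with 5.24 ± 0.65 in TS and -0.14 ± 0.65 in IT. Its mean level was -7.29 at S1 and -2.06 at S2 in TS, and -2.62 and -2.75 in IT. These genes were named after their values were seen. None of the 5 calls held with TS S2 replicates 1 and 2 as 1 sample, where 0 probes differed from either variety. The counts were unstable to single arrays as well: leaving out RG S2 replicate 3 gave 123 probes against RG, and leaving out TS S1 replicate 2 gave 142 against IT. With blocks for scan period, for slide and for both, 14, 50 and 53 probes differed from RG and 154, 420 and 317 from IT. Both comparisons hold the same TS arrays.

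**Figure D5:**
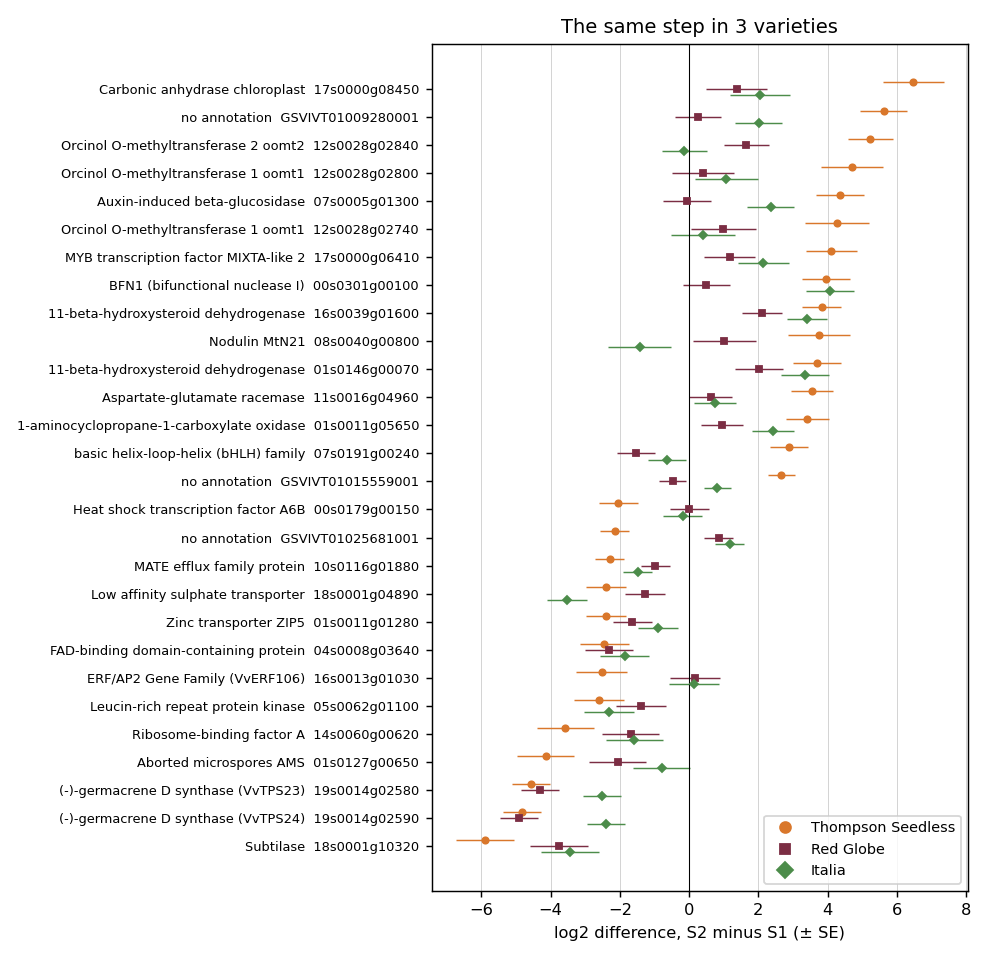
Log2 difference of S2 minus S1 with its SE in Thompson Seedless (orange), Red Globe (purple) and Italia (green) for the 24 annotated genes of the ranking above and the 4 other probes whose step differed from a seeded variety. The falls of the germacrene D synthases and the subtilase appear in all 3 varieties, while the orcinol O-methyltransferase VIT_12s0028g02840 stands at 5.24 in Thompson Seedless and -0.14 in Italia. The mean S1 level of this gene was -7.29 in Thompson Seedless and -2.62 in Italia.

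The largest differences of all fell on probes without annotation. GSVIVT01012922001 lay at -3.59, -7.71 and -2.63 at S1 and at 4.52, 4.39 and 6.31 at S2, a difference of 9.71 ± 2.02 (adjusted p = 0.00409). GSVIVT01038619001 went from -7.89, -8.69 and -1.41 to 2.85, 2.79 and 4.15, by 9.26 ± 1.40 (adjusted p = 0.000155). Both were below background on part of the S1 arrays and among the brighter probes at S2. The largest such fall, GSVIVT01034967001, went from -0.15, 0.36 and -0.34 to -5.32, -5.60 and -5.73, by -5.51 ± 0.64 (adjusted p = 9.59e-06), with -5.29 in RG and -3.71 in IT.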

How the data were processed

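The authors hybridised Cy3-labelled RNA to a custom 1-colour Agilent grapevine array and deposited both the scanner tables, in which Feature Extraction gives each spot an intensity after background correction within the array, and a matrix of intensities per probe. The scanner output names version 10.7.1.1, not the version in the methods, and its scans precede the stated seasons; the files settle neither point. Unscaled scanner intensities matched 99.1% of the matrix to within 0.1%, so the 75th percentile step of the methods was applied here.

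Unflagged spots of a probe were averaged and put on the log2 scale, relative to the 75th percentile of the array over the matrix probes. A model with 1 mean per variety and stage was fitted to 36 arrays (24 residual degrees of freedom) with limma 3.58.1 in R 4.3.3, and tested on simulated data. Tables and figures used Python 3.11.15, pandas 2.3.3, NumPy 2.4.6, SciPy 1.17.1 and matplotlib 3.10.9. An exact two-sided permutation test of 3 arrays against 3 cannot go below p = 0.1. The number of arrays limits the precision. The study's tables gave a V1 identifier for 3842 probes, which are named by V0 gene models, and an annotation for 4354.

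Named genes were VviAGL11 and its 3 candidate targets, the 12 largest annotated rises and falls among called probes detected at both stages without overlap, up to 4 such members of each list, the markers, the 4 largest unannotated changes, and probes whose step differed between varieties. The members and lists were chosen with earlier results of these data known. The settings varied were scaling, background correction, the filter on dim probes, the arrays fitted, blocks for replicate number, slide, scan session and scan period, array weights, the methods' t-test, and each array left out. The blocks by scan and the averaging of 2 arrays were added after seeing the data. The authors' own comparison columns were not used.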

Additional observations from a re-analysis of the deposited data

Results flagged for a closer look

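The step from pre-bloom to post-bloom in 5 probes is given here because in TS it differed, by a test of the difference itself, from the same step in a seeded variety. Against RG the fitted step differed by 5.37 on the log2 scale for GSVIVT01009280001, a value with no exact size since its TS S1 level was not measurable, by 4.42 for the bHLH factor VIT_07s0191g00240 and by 3.13 for GSVIVT01015559001. GSVIVT01009280001 was not above background on any TS S1 array, and its S2 levels of -2.40, -2.88 and -0.15 gave a rise of at least 34.2-fold (adjusted p = 1.04e-05). GSVIVT01015559001 rose from -3.61, -2.99 and -2.87 to -0.71, -0.54 and -0.24. In RG the mean levels at S1 and S2 were -5.88 and -5.63 for GSVIVT01009280001, -3.01 and -4.54 for the bHLH factor, and -1.74 and -2.22 for GSVIVT01015559001. Against IT the step differed by 5.37 for the orcinol O-methyltransferase VIT_12s0028g02840 and by -3.32 for GSVIVT01025681001, which fell from 5.28, 3.71 and 4.65 to 2.26, 2.03 and 2.89. In IT the mean levels at S1 and S2 were -2.62 and -2.75 for VIT_12s0028g02840, and 2.04 and 3.2 for GSVIVT01025681001. None of the 5 was called with TS S2 replicates 1 and 2 averaged as 1 sample. With 1 of the pair left out, 0 probes (without replicate 1) and 2 probes (without replicate 2) differed from RG and 0 from IT. The groups have 3 arrays each, too few for a search for single arrays that stand apart.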

How the results depend on the processing

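The 776 calls of the step in TS became 300 without scaling (94.7% of them higher, against 80.2%), 490 with a normexp background correction, 504 in a fit of the 12 TS arrays, 142 in one of the 6 arrays compared, 5398 with array weights (32.7% higher, weights from 0.16 to 4.6), 1200 with the scan period as a block, 1182 with a random slide block added, 2711 and 237 within the earlier and later scans, and 442 with the near-identical arrays as 1 sample. The methods' t-test gave 1193 at its threshold and 14 after Benjamini-Hochberg adjustment. Leaving out 1 array gave 453 to 871. Without TS S2 replicate 1 the count was 453 and without replicate 2 it was 455. The cause of these shifts was not tested, beyond the smaller number of samples where arrays were left out.

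Of the 50 named calls 26 held without scaling, 29 with normexp, 33 when all 6 arrays had to be above background, 29 in the 12 TS arrays, 16 in the 6 arrays, 32 with slide as a fixed block and 18 in the later scans (37 to 41 with an array left out). No called difference of a named gene changed sign under the settings run. The 35 calls in lists became 16, 16, 23, 23 and 11 under the first 5 of these settings, 180 with array weights, 138 and 17 in the earlier and later scans, 20 as 1 sample, 18 with restricted annotations and 21 to 37 with an array left out.

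The 3 differences from RG became 8 with quantile normalization, 1 without scaling, 0 with normexp, 1 in 24 arrays, 50, 8 and 6 with slide as a random block, slide as a fixed block and scan session, 630 with array weights, 14 and 53 with scan period without and with slide, 990 and 0 in the earlier and later scans, 0 as 1 sample, and 0 to 123 with an array left out. The 2 differences from IT became 27 with quantile normalization, 0 without scaling, 19 with the percentile over probes above background on all arrays, 0 with normexp, 8 and 0 under stricter filters, 420 with a random slide block, 4735 with array weights, 154 and 317 with scan period, 5 in the later scans, 0 as 1 sample, and 0 to 142 with an array left out. These steps could not be fitted in the 12 TS arrays, nor IT with slide as a fixed block or in the earlier scans.

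Replicate numbers do not pair the samples: deviations of the same number in S1 and S2 correlated at 0.62, -0.26 and 0.68. The -0.26 belongs to replicate 2, whose S1 and S2 arrays were scanned in different periods. Across all numbers, S1 and S2 arrays of the same scan period correlated at 0.27 to 0.68. Those of different periods correlated at -0.66 to -0.24. With the replicate block 883 probes were called in TS, 49 of the named and 36 of the listed, 13 differed from RG and 9 from IT.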

Other observations

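Several gene families were examined after their values had been seen, so the counts describe the families and carry no test of them. Over all 22203 probes tested 3.5% were called, 2.8% higher and 0.694% lower. All 6 annotated orcinol O-methyltransferase probes were called higher (4 with the near-identical arrays as 1 sample). Beside the 3 described above, VIT_15s0045g01490, VIT_12s0028g02870 and VIT_12s0028g02900 were not above background on any S1 array and rose at least 35.8-, 17.1- and 10.9-fold. In RG and IT these 3 had log2 differences of 2.14 and 5.50, 1.72 and 4.12, and 1.67 and 3.91. Of 4 carbonic anhydrase probes 3 were called higher, also as 1 sample. VIT_11s0065g00100 lay at -8.48, -8.30 and -8.54 at S1 and at -2.84, -2.82 and -1.68 at S2, a rise of at least 25.3-fold, and VIT_10s0042g00470 rose at least 18.4-fold. The fourth, a carbonic anhydrase precursor (VIT_08s0007g03240), had a difference of -0.18 (adjusted p = 0.938).

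Of 21 subtilase probes 3 were higher and 1 lower, also as 1 sample. The 3 lie in a cluster: VIT_16s0098g01160 rose by 3.03, VIT_16s0098g00950 by 2.80 and VIT_16s0098g00970 by 2.64, while VIT_18s0001g10320 fell by 5.89. Of 22 ABC transporters of the ABCC class, which carry conjugates into the vacuole, 1 was higher and 5 lower. As 1 sample the rise of VvABCC21 (2.71) was still called and none of the falls was. Of these falls, 4, between -1.49 and -1.59, belong to VvABCC12, VvABCC13, VvABCC14 and VvABCC16 in the cluster VIT_02s0025g00930 to VIT_02s0025g00990, and near-identical members may share signal. Of 3 ACT domain repeat probes 2 were higher, by 2.69 and 2.53, and neither was called as 1 sample.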
